A study of Homo sapiens with 26 samples.

Results

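The genes described here are 10 genes of the Hippo pathway's transcriptional arm: YAP1, WWTR1, TEAD1, LATS2, AMOTL2, AJUBA, CCN1, CCN2, ANKRD1 and AXL. They were chosen by name, as the coactivators YAP1 and WWTR1, their DNA-binding partner TEAD1 and genes widely used as readouts of YAP and TEAD activity, and each was found by its Ensembl identifier among the 62778 identifiers of the series. RNA was measured by poly(A) sequencing in 26 libraries of 3 established pancreatic ductal adenocarcinoma cell lines in which HNF4A, the gene of the nuclear receptor HNF4α, had been switched on or lowered. HNF4α is a transcription factor of liver, gut and pancreas whose isoforms start at a promoter called P1 or one called P2.

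Panc10.05 and BxPC3 carried a doxycycline-inducible isoform, labelled P1-a2 or P2-a8, or a control labelled NC, which the titles give as GFP in Panc10.05 and as EV in BxPC3. Each of these groups had 2 libraries, and all of them, controls included, were given doxycycline, the drug that turns such constructs on. The dose was 500 ng/mL in every BxPC3 group, whereas in Panc10.05 the P2-a8 group received 12.5 ng/mL and the other groups 25 ng/mL. Isoform and dose therefore change together in Panc10.05. AsPC-1 cells were studied by CRISPR interference, in which guide RNAs bring an inactive Cas9 to a promoter and lower its transcription. The guides were sgP1E and sgP1J (group sgP1), sgP2D and sgP2G (group sgP2), sgDual2 and sgDual3 (group sgDual, against both isoforms) and the control sgNC, with 2 libraries per guide. The labels give neither the time of induction nor whether lines were clones, and do not say that libraries came from separate cultures, so p-values measure the spread between libraries, which may be technical.

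The Hippo pathway is a kinase cascade that controls tissue growth. Its last kinases, LATS1 and LATS2, phosphorylate the coactivators YAP and TAZ (TAZ is encoded by WWTR1) and keep them out of the nucleus. Unphosphorylated YAP and TAZ enter the nucleus, bind the TEAD transcription factors and switch on genes such as CCN1 and CCN2. In pancreatic ductal adenocarcinoma, YAP is known for its part in tumour growth and in the basal-like, mesenchymal end of the tumour spectrum. RNA levels report neither the phosphorylation nor the place of YAP and TAZ in the cell.

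The libraries held 34618745 to 46827673 counts each (Panc10.05), 26369154 to 37483772 (BxPC3) or 26079388 to 50662077 (AsPC-1), and all 10 genes passed the filter on low counts in each line. HNF4A itself was at 0.24 and 0.058 CPM (counts scaled to library size after TMM normalization) in the Panc10.05 NC libraries, 37.6 and 37.6 with P2-a8 and 10.7 and 12.98 with P1-a2. In BxPC3 it was at 1.08 and 0.46 CPM in NC, 12.6 and 14.2 with P2-a8 and 9.76 and 11.6 with P1-a2. In AsPC-1 it stood at 206 and 220 CPM with sgNC, 109 to 146 with sgP1, 76.7 to 93.9 with sgP2 and 3.19 to 13.6 with sgDual. The 6 epithelial and ductal markers were detected in every group, with sums of 5824 to 18030 CPM, and the 3 endothelial and 3 leukocyte markers summed to at most 5.68 CPM each in any library. The 6 fibroblast markers summed to 4.67 to 7.16 CPM in Panc10.05, where DCN and LUM were at 0, to 13.3 to 19.5 in BxPC3 and to 132 to 301 in AsPC-1.

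TEAD factors bind DNA at a short core, GGAATG, and promoters were searched for it because the genes are grouped as TEAD targets. Both strands were searched, and on the other strand the core reads CATTCC. RefSeq promoters (GRCh38.p14, 250 bases before to 50 bases after a start) were matched for 8 of the 10 genes by symbol. Of 35116 promoters of this length, 4928 (14%) held the core at least once, 1.37% at least 2 times and 0.128% at least 3 times. CCN2 held 3 cores and ANKRD1 held 2. YAP1, LATS2, 1 of 2 AMOTL2 promoters, 1 of 2 AJUBA promoters and 1 of 2 AXL promoters held 1 each, the LATS2 core lying after the start, and neither WWTR1 promoter held one. A match describes letters, not a bound site. The AMOTL2, AJUBA and AXL promoters with a core lie wholly inside the annotated genes, not at their outer ends. Which starts the cells use was not tested. The stretches below show where the cores lie in the genes whose values are set beside each other later, written 5′ to 3′ on the gene's strand, with the core in capitals. They are chr6:131951442-131951561 (CCN2, minus strand), chr10:90921190-90921327 (ANKRD1, minus), chr3:134374491-134374536 (AMOTL2, minus), chr11:102110265-102110310 (YAP1, plus), chr14:22976876-22976921 (AJUBA, minus) and chr19:41226523-41226568 (AXL, plus).
CCN2: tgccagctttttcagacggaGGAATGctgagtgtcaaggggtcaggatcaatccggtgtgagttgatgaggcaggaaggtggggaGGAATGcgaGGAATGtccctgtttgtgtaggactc
ANKRD1: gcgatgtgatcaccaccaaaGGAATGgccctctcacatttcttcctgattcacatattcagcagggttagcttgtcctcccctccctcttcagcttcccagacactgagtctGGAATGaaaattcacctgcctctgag
AMOTL2: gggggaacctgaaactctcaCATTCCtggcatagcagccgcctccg
YAP1: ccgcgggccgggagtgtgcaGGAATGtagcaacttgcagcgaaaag
AJUBA: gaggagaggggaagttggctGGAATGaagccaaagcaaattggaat
AXL: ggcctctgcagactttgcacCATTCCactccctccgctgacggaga

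The same promoters were searched for CAAAGTCCA (TGGACTTTG on the other strand), an HNF4 binding sequence, which 0.384% of all promoters held. Among these genes it occurred in the AJUBA promoter that also held the TEAD core, 24 to 32 bases after the start, and in no other of the searched promoters. That start lies inside the annotated gene, and its use in these cells was not tested. The HNF4 sequence is shown because AJUBA had the largest rise of the set past the threshold in Panc10.05, and the capitals mark it (chr14:22976800-22976828, minus strand).
AJUBA: aggaaaagcaCAAAGTCCAggtttaaata

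**Figure D1:**
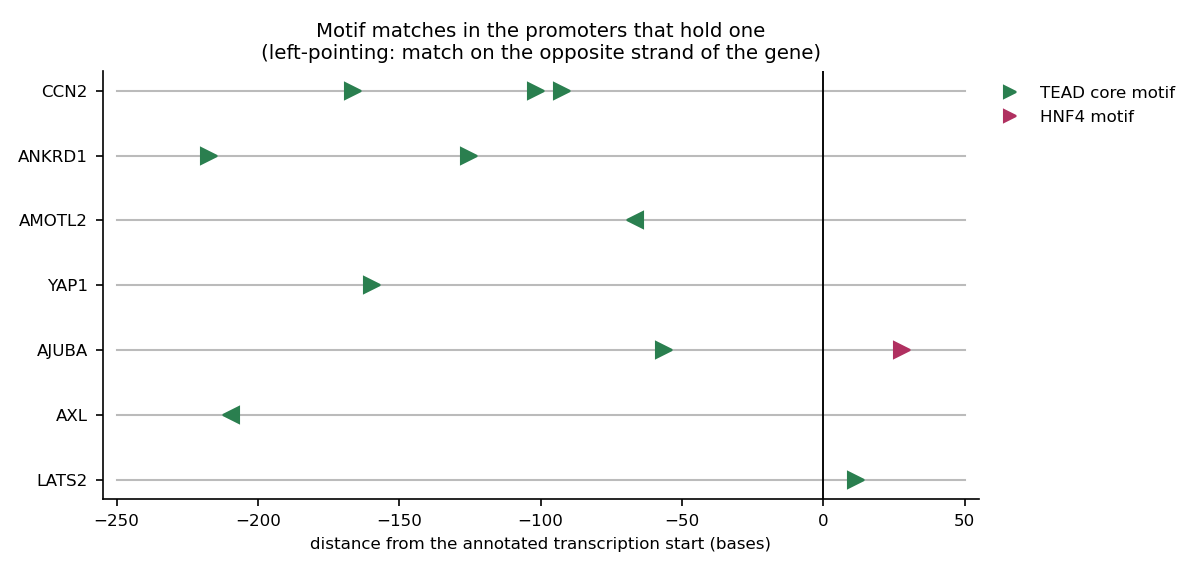
Positions of the TEAD core (green) and of the HNF4 sequence (red) in the RefSeq promoters that hold one, in bases from the annotated start (0), with 1 line per gene. CCN2 has 3 cores and ANKRD1 2, all before the start, while the LATS2 core and the HNF4 sequence of AJUBA lie after it.

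In the control libraries the genes differed widely in level. Per kilobase of exon, CCN1 stood at 364 ± 19.3 CPM (SD, n = 2) in Panc10.05, 95.1 ± 22.0 in BxPC3 and 27.3 ± 0.90 in AsPC-1. AXL stood at 175 ± 2.06 CPM per kilobase in Panc10.05, 26.9 ± 1.6 in BxPC3 and 31.2 ± 1.80 in AsPC-1. These were the highest levels of the set in Panc10.05, whose WWTR1 stood at 13.9 ± 0.13 CPM per kilobase and YAP1 at 28.5 ± 1.56. AJUBA had the opposite order of the induced lines, with 67.1 ± 1.34 CPM per kilobase in BxPC3 and 15.5 ± 0.32 in Panc10.05. WWTR1 was lower in AsPC-1 (4.74 ± 0.056) than in BxPC3 (15.2 ± 0.015), and ANKRD1 was close to undetected in AsPC-1 at 0.17 ± 0.055, against 22.8 ± 2.95 in Panc10.05 and 24.4 ± 1.19 in BxPC3. YAP1 was nearly level over the lines, from 28.5 to 34.7 CPM per kilobase. The lines were normalized in separate tables, so these levels were not tested against each other. In bulk RNA, fewer cells expressing a gene and less RNA per cell cannot be told apart.

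**Figure D2:**
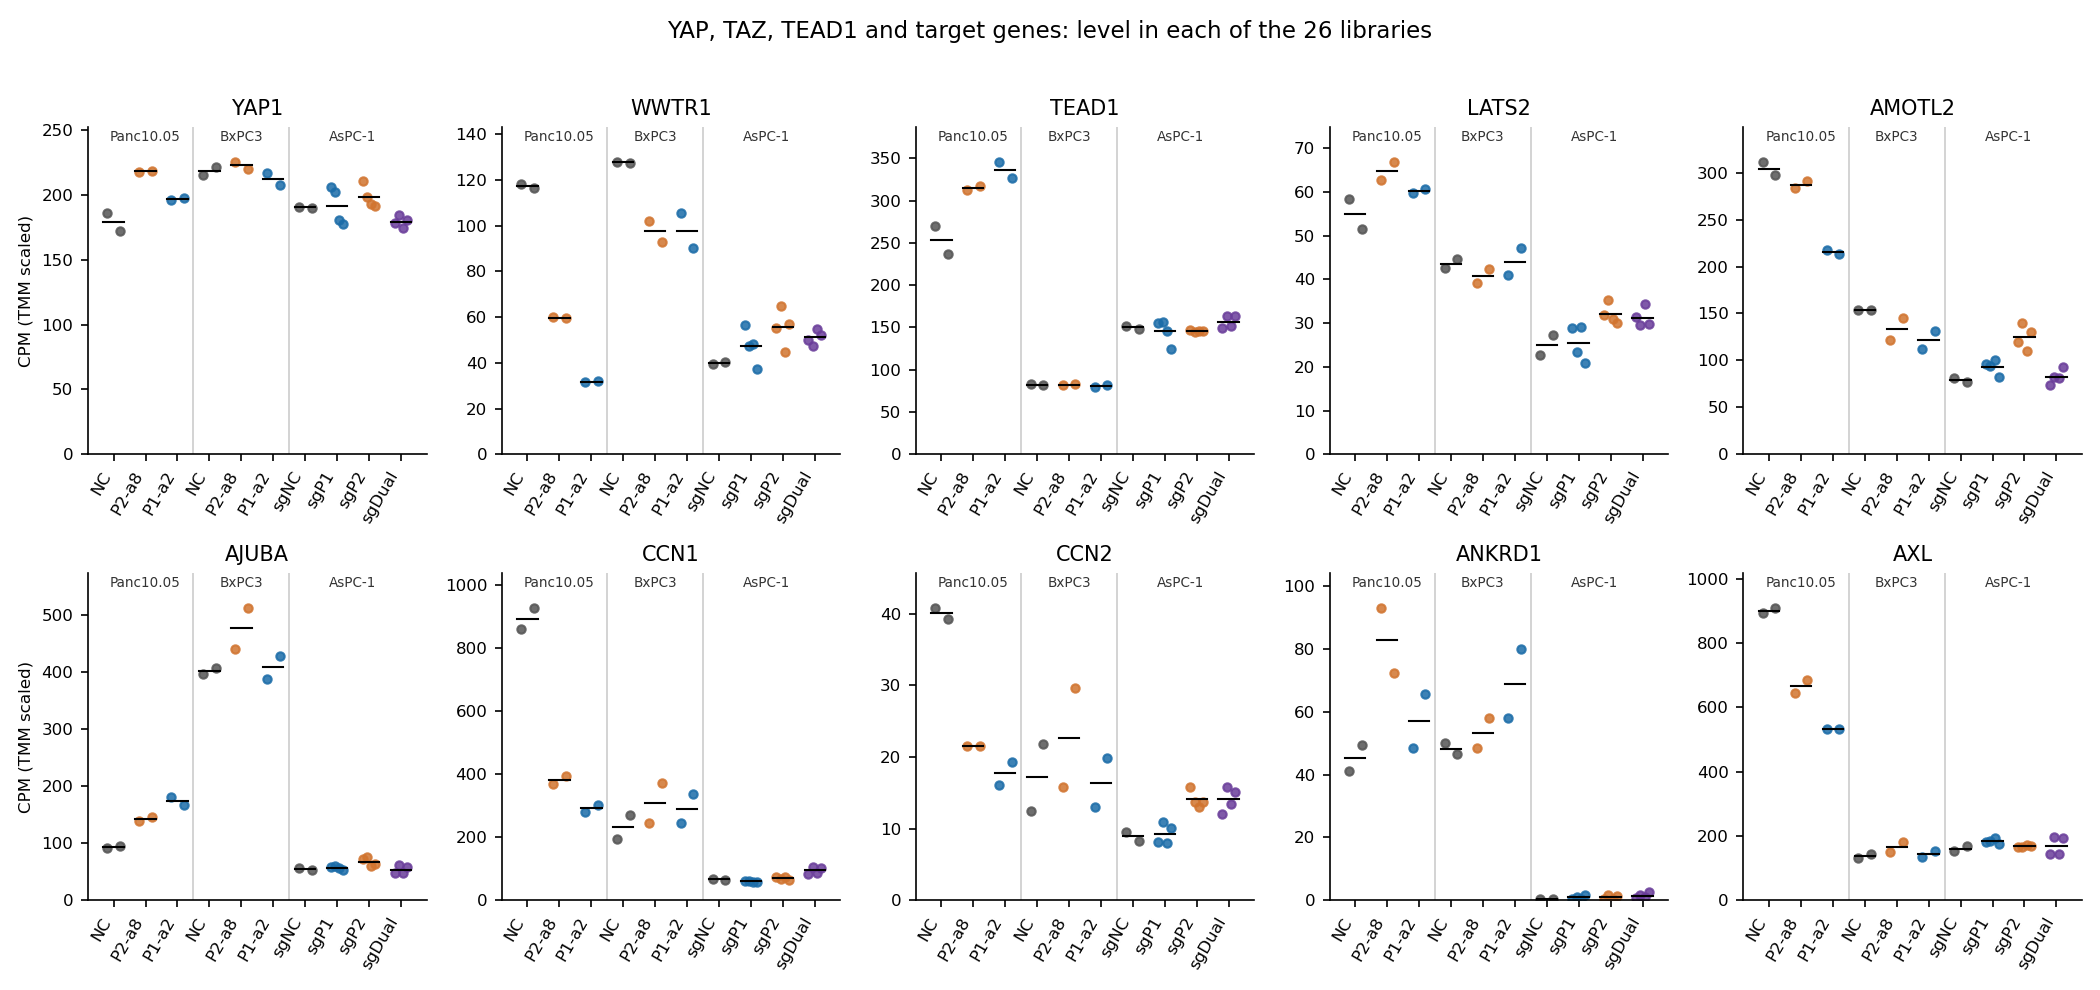
Level of each of the 10 genes in each of the 26 libraries, in CPM on a linear axis from 0, by line and group, where a point is 1 library and a bar the group mean. WWTR1, CCN1, CCN2 and AXL stepped down from NC to P2-a8 to P1-a2 in Panc10.05, and ANKRD1 lay near 0 in AsPC-1.

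Induction of HNF4α in Panc10.05 went with a fall of TAZ RNA and of CCN1, CCN2 and AXL, and with a rise of AJUBA and TEAD1, for both isoforms. With P1-a2, 8 of the 10 genes passed the threshold of adjusted p under 0.05 in edgeR's quasi-likelihood test, 3 higher and 5 lower than NC. Of all 17247 genes tested in that comparison, 62% passed, 31.5% higher and 30.5% lower. With P2-a8, 8 of the 10 passed, 4 higher and 4 lower, where 46.2% of all genes passed, 23.7% higher and 22.5% lower. The genes' median log2 fold change was -0.18 with P1-a2 and 0.08 with P2-a8, against 0.02 and 0.001 over all genes. Both comparisons share the 2 NC libraries, and so shared directions are not independent.

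The 2 coactivators moved in opposite directions. WWTR1 (ENSG00000018408, chr3:149517235-149736714 on GRCh38, minus strand), the gene of TAZ, was at 118 and 117 CPM in the NC libraries, 59.9 and 59.6 with P2-a8 and 31.6 and 31.9 with P1-a2. The 3 groups were far apart relative to the gap between replicates. With P1-a2 it fell by 1.89 ± 0.067 on the log2 scale (SE; 27.1% of NC remained; adjusted p = 3.64e-26, edgeR) and with P2-a8 it fell by 0.97 ± 0.064 (50.9% remained; adjusted p = 1.76e-16, edgeR). YAP1 (ENSG00000137693, chr11:102110461-102233423, plus strand), the other coactivator, was at 186 and 172 CPM in NC, 218 and 219 with P2-a8 and 196 and 197 with P1-a2. Its rise with P2-a8 was small but past the threshold (log2 0.28 ± 0.059, adjusted p = 1.07e-04, edgeR). Its rise with P1-a2 (0.14 ± 0.059, adjusted p = 0.0453, edgeR) was not past it in DESeq2 (0.13, adjusted p = 0.12) or without NC replicate 2 (0.08, adjusted p = 0.315), P1-a2 replicate 1 (adjusted p = 0.117) or P1-a2 replicate 2 (adjusted p = 0.152).

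TEAD1 (ENSG00000187079, chr11:12674591-12944483, plus strand), a DNA-binding partner of both coactivators, was at 270 and 237 CPM in NC, 313 and 318 with P2-a8 and 345 and 327 with P1-a2. No induced library overlapped the controls, and the rises were 0.41 ± 0.062 on the log2 scale with P1-a2 (adjusted p = 2.43e-07, edgeR) and 0.32 ± 0.062 with P2-a8 (adjusted p = 4.06e-05, edgeR). The exons of WWTR1 share 795 bases with WWTR1-AS1 and those of YAP1 share 628 with AP000942.2, both on the opposite strand. CCN2 shares 195 exon bases with AL133346.1 and AXL shares 67 with AC011510.1 on the opposite strand, and AMOTL2 shares 187 with RPL39P5 and AJUBA 50 with AL132780.3 on the same strand. The strand setting of the counting is not given in the sources used here, so the counts of these 6 genes are uncertain by the reads of such partners.

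The cytoplasmic regulators of the pathway, themselves targets that feed back on it, did not move together. AJUBA (ENSG00000129474, chr14:22971174-22982642, minus strand), a LIM protein that restrains LATS kinases, was at 91.6 and 94.3 CPM in NC, 139 and 145 with P2-a8 and 182 and 167 with P1-a2. It rose by 0.91 ± 0.062 on the log2 scale with P1-a2 (1.88-fold; adjusted p = 1.38e-16, edgeR) and by 0.61 ± 0.062 with P2-a8 (1.53-fold; adjusted p = 5.22e-11, edgeR), in all 4 induced libraries. AMOTL2 (ENSG00000114019, chr3:134355874-134375479, minus strand), a junctional angiomotin that binds and retains YAP, went the other way with P1-a2. It was at 311 and 298 CPM in NC, 284 and 291 with P2-a8 and 218 and 214 with P1-a2, a log2 fold change of -0.50 ± 0.058 for P1-a2 (adjusted p = 8.15e-10, edgeR) and of -0.08 ± 0.058 for P2-a8 (adjusted p = 0.254, edgeR). LATS2 (ENSG00000150457, chr13:20973032-21061547, minus strand), the kinase, was at 58.4 and 51.6 CPM in NC, 62.7 and 66.8 with P2-a8 and 59.8 and 60.6 with P1-a2. Only its difference with P2-a8 passed (0.23 ± 0.069, adjusted p = 0.0051, edgeR), and it did not without NC replicate 2 (0.15, adjusted p = 0.142) or P2-a8 replicate 2 (0.20, adjusted p = 0.0617). With P1-a2 it passed without NC replicate 1 (0.21, adjusted p = 0.0241).

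The secreted matricellular proteins fell most among the targets. CCN1 (ENSG00000142871, chr1:85580761-85583962, plus strand), also known as CYR61, was at 861 and 928 CPM in NC, 371 and 396 with P2-a8 and 280 and 303 with P1-a2. Its log2 fold change was -1.62 ± 0.062 with P1-a2 (32.6% of NC remained; adjusted p = 6.36e-25, edgeR) and -1.22 ± 0.062 with P2-a8 (42.9% remained; adjusted p = 2.83e-20, edgeR). CCN2 (ENSG00000118523, chr6:131948176-131951373, minus strand), also known as CTGF and the gene with 3 TEAD cores in the stretch above, was at 40.8 and 39.3 CPM in NC, 21.5 and 21.5 with P2-a8 and 16.2 and 19.3 with P1-a2. Its log2 fold change was -1.17 ± 0.085 with P1-a2 (adjusted p = 9.58e-16, edgeR) and -0.90 ± 0.084 with P2-a8 (adjusted p = 6.17e-12, edgeR). For both genes every induced library lay below every NC library.

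ANKRD1 (ENSG00000148677, chr10:90912096-90921276, minus strand), a nuclear and sarcomeric ankyrin repeat protein whose promoter held 2 TEAD cores, did not follow CCN1 and CCN2. It was at 41.1 and 49.3 CPM in NC, 93.1 and 72.4 with P2-a8 and 48.4 and 65.8 with P1-a2. The P2-a8 libraries lay above the NC libraries, but the difference did not pass in edgeR (log2 0.88 ± 0.25, adjusted p = 0.0669), while it did in DESeq2 (0.86, adjusted p = 0.00466). With P1-a2 the libraries overlapped those of NC (0.34 ± 0.25, adjusted p = 0.322, edgeR), although without P1-a2 replicate 1 the difference passed (0.55, adjusted p = 0.00727). AXL (ENSG00000167601, chr19:41219203-41261766, plus strand), a receptor tyrosine kinase, was at 894 and 909 CPM in NC, 645 and 687 with P2-a8 and 533 and 533 with P1-a2. It fell by 0.76 ± 0.059 on the log2 scale with P1-a2 (adjusted p = 6.71e-15, edgeR) and by 0.44 ± 0.058 with P2-a8 (adjusted p = 3.70e-08, edgeR).

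**Figure D3:**
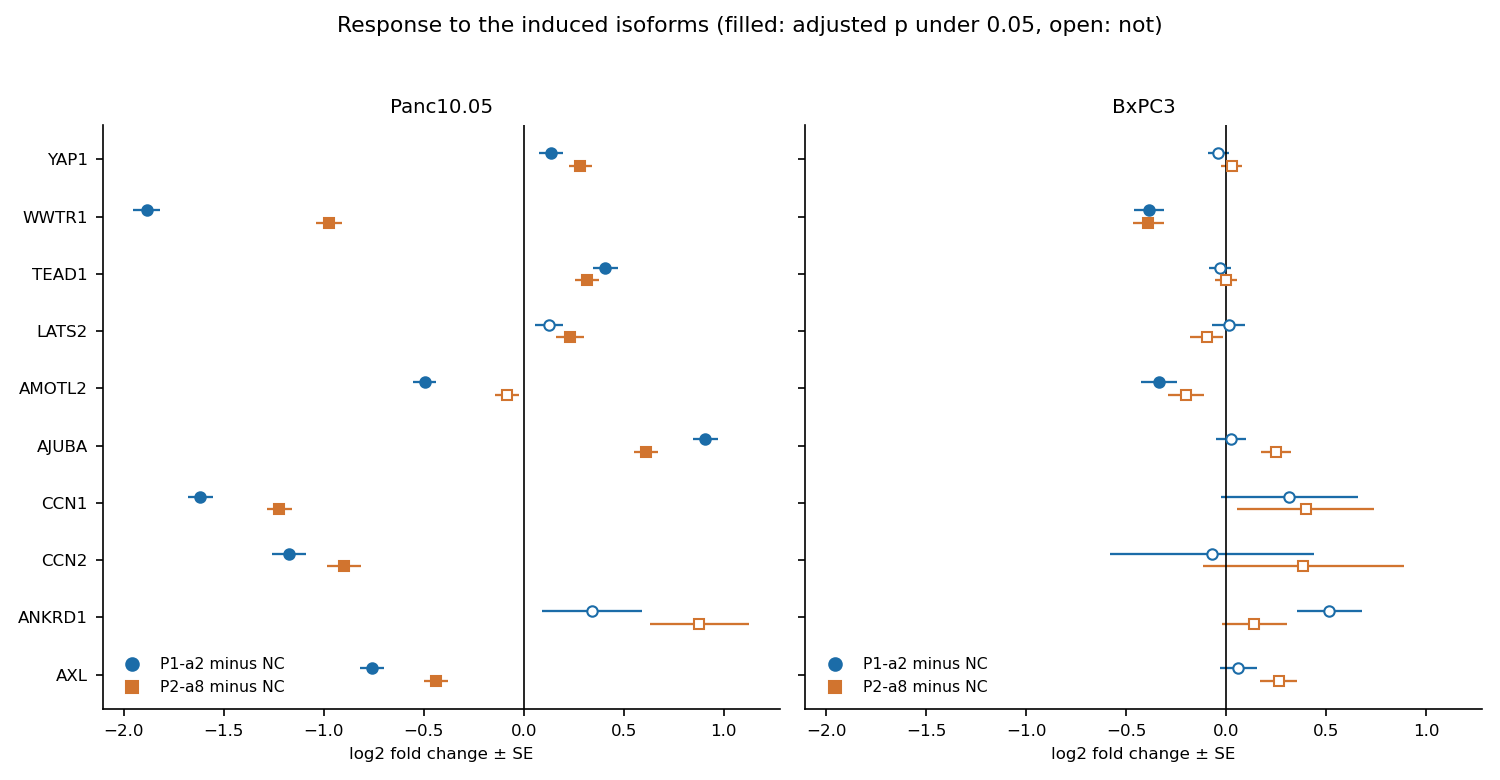
Log2 fold change against NC with its standard error for the 10 genes in Panc10.05 (left) and BxPC3 (right), for P1-a2 (circles) and P2-a8 (squares), where filled symbols passed an adjusted p of 0.05. In Panc10.05 WWTR1, CCN1, CCN2 and AXL lie left of 0 for both isoforms and AJUBA and TEAD1 right of it, while in BxPC3 only WWTR1 and, with P1-a2, AMOTL2 are filled.

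The isoforms were also compared with each other in Panc10.05, at unequal doses, with HNF4A at 3.17-fold higher RNA with P2-a8. Here 7 of the 10 genes passed, 1 higher with P1-a2 and 6 lower, where 46.9% of all genes passed, 22.2% higher and 24.7% lower. WWTR1 was lower with P1-a2, with a log2 difference of -0.91 ± 0.067 (adjusted p = 6.61e-15, edgeR) that was the largest of the set. AMOTL2 (-0.41 ± 0.058), CCN1 (-0.39 ± 0.061), AXL (-0.32 ± 0.058) and CCN2 (-0.28 ± 0.088) were lower too, and AJUBA was higher (0.30 ± 0.061). The CCN2 difference did not pass without P1-a2 replicate 1 (-0.15, adjusted p = 0.249, edgeR) or in DESeq2 (adjusted p = 0.0589). The YAP1 difference (-0.15 ± 0.059, adjusted p = 0.0358, edgeR) did not pass in DESeq2 (adjusted p = 0.0686) or without any of the 4 libraries compared (adjusted p from 0.0861 to 0.157). The YAP1 libraries with P1-a2 lay below those with P2-a8 and above those of NC, but neither of these P1-a2 differences passed in every alternative.

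In BxPC3, where all groups had the same dose, few of the genes passed the threshold. With P1-a2, 2 of the 10 passed, both lower, where 32% of all genes passed, 17.1% higher and 14.9% lower. With P2-a8, 1 of the 10 passed, lower, where 6.99% of all genes passed, 4.3% higher and 2.69% lower. Between the isoforms 0 of the 10 passed in edgeR and 0 in DESeq2, with 1 at an unadjusted p under 0.05 in edgeR, where 22.5% of all genes passed, 11.6% higher and 10.8% lower. Median log2 fold changes of the 10 genes were -0.01, 0.08 and -0.07 in these 3 comparisons, against -0.012, 0.013 and -0.014 over all genes. These counts depend on how replicate numbers are treated: with the replicate number as a block, 4, 6 and 4 of the 10 passed. Calls over all 17635 genes also rose with the block, from 5652, 1232 and 3963 to 7333, 2886 and 5992. Same-numbered BxPC3 libraries deviated together (r = 0.131 to 0.24 over genes, for 3 pairs of groups), but no label ties the numbers to a shared culture or day.

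WWTR1 fell in BxPC3 as well, to a smaller extent. It was at 128 and 128 CPM in NC, 102 and 92.9 with P2-a8 and 106 and 90.1 with P1-a2. The log2 fold change was -0.39 ± 0.077 with P1-a2 (adjusted p = 0.0028, edgeR) and -0.39 ± 0.077 with P2-a8 (adjusted p = 0.0112, edgeR), and the isoforms differed by 0.004 ± 0.078 from each other. Without NC replicate 2 the fall with P2-a8 did not pass (-0.40, adjusted p = 0.0621). AMOTL2 was at 153 and 154 CPM in NC, 122 and 145 with P2-a8 and 112 and 131 with P1-a2. It fell with P1-a2 (-0.33 ± 0.090, adjusted p = 0.017, edgeR), a call lost without P1-a2 replicate 1 (-0.22, adjusted p = 0.115), NC replicate 1 (adjusted p = 0.0698) or NC replicate 2 (adjusted p = 0.073).

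CCN1 did not fall in BxPC3. It was at 195 and 272 CPM in NC, 244 and 371 with P2-a8 and 245 and 336 with P1-a2, replicate 1 given before replicate 2. In each of the 3 groups replicate 2 was the higher library, and the difference between replicates was as large as that between groups. The log2 fold change was 0.32 ± 0.34 with P1-a2 and 0.40 ± 0.34 with P2-a8 (adjusted p = 0.57 and 0.632, edgeR). Within each replicate number both isoforms lay above NC, and with the replicate block the differences passed (0.32, adjusted p = 5.67e-06, and 0.39, adjusted p = 2.01e-06, edgeR). CCN2 was also higher in replicate 2 of each group, with 12.4 and 21.9 CPM in NC, 15.8 and 29.6 with P2-a8 and 13.02 and 19.8 with P1-a2. Its difference with P2-a8 (0.39 ± 0.50, adjusted p = 0.765, edgeR) passed with the replicate block (0.39, adjusted p = 0.00454, edgeR). With P1-a2, CCN2 replicate 2 lay below NC replicate 2, and the difference did not pass (-0.07 ± 0.51, adjusted p = 0.938, edgeR). AXL was at 133 and 144 CPM in NC, 151 and 181 with P2-a8 and 135 and 154 with P1-a2, again with replicate 2 higher in each group. AJUBA was at 396 and 407, 441 and 512, and 388 and 429 CPM in the same order. For both genes the P2-a8 libraries lay above the NC libraries (0.26 ± 0.094, adjusted p = 0.146 for AXL, and 0.25 ± 0.075, adjusted p = 0.0787 for AJUBA, edgeR). Both differences passed without P2-a8 replicate 1 (0.37, adjusted p = 0.025, and 0.33, adjusted p = 0.021), with no filter on low counts (adjusted p = 0.000697 and 0.000417) and with the replicate block (adjusted p = 0.000393 and 0.000368).

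ANKRD1 was higher in the P1-a2 libraries of BxPC3 at the edge of the threshold. It was at 49.98 and 46.7 CPM in NC, 48.6 and 57.9 with P2-a8 and 57.9 and 80.0 with P1-a2. The P1-a2 libraries lay above NC (0.52 ± 0.16, adjusted p = 0.0516, edgeR). The difference passed in 6 of 9 alternatives, namely DESeq2 (adjusted p = 0.00169), total-count scaling (0.0426), no filter on low counts (5.57e-06), only 2 groups fitted (0.0472), the replicate block (0.0117) and without P1-a2 replicate 1 (0.74 on the log2 scale, 0.000367). TEAD1 ranged from 79.5 to 83.1 CPM, YAP1 from 208 to 225 and LATS2 from 39.2 to 47.1 over the 6 libraries. Their log2 fold changes against NC lay between -0.10 and 0.03, and none passed.

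Whether the responses differ between the lines was tested as an interaction in a joint fit of the 12 libraries. Line, dose, control construct and the number prefix of the library titles change together there and cannot be told apart. For P1-a2 against NC, 5 of the 10 genes differed, where 36.4% of all genes did. The change in Panc10.05 minus that in BxPC3 was -1.92 ± 0.37 for CCN1, -1.49 ± 0.099 for WWTR1, -0.81 ± 0.11 for AXL, 0.89 ± 0.10 for AJUBA and 0.45 ± 0.090 for TEAD1. CCN2 differed by -1.09 ± 0.54 without passing (adjusted p = 0.183, edgeR), and passed with the replicate block (-1.11, adjusted p = 6.75e-09). For P2-a8 the CCN2 difference was -1.28 ± 0.54 (adjusted p = 0.156) and likewise passed with the block (-1.29, adjusted p = 4.97e-10, edgeR). For P2-a8 against NC, 7 of the 10 differed, where 23.5% of all genes did: CCN1 (-1.62), AXL (-0.70) and WWTR1 (-0.58) were lower in Panc10.05, and AJUBA (0.36), LATS2 (0.33), TEAD1 (0.32) and YAP1 (0.26) were higher. For P1-a2 against P2-a8, 2 of the 10 differed, WWTR1 (-0.90 ± 0.10) and AJUBA (0.53 ± 0.099), where 22.3% of all genes did. The CCN1 difference for P2-a8 (adjusted p = 0.0227, edgeR) did not pass without any 1 of 6 libraries (adjusted p from 0.0555 to 0.0815), namely both Panc10.05 P2-a8 libraries, both Panc10.05 NC libraries, BxPC3 NC replicate 1 and BxPC3 P2-a8 replicate 2. The LATS2 difference for P2-a8 did not pass in DESeq2 (adjusted p = 0.0802) or without Panc10.05 P2-a8 replicate 2 (adjusted p = 0.0914), Panc10.05 NC replicate 2 (adjusted p = 0.156), BxPC3 P2-a8 replicate 1 (adjusted p = 0.118) or BxPC3 NC replicate 2 (adjusted p = 0.132). The YAP1 difference did not pass without Panc10.05 P2-a8 replicate 1 (adjusted p = 0.0558), Panc10.05 NC replicate 2 (adjusted p = 0.105), BxPC3 P2-a8 replicate 2 (adjusted p = 0.0716) or BxPC3 NC replicate 2 (adjusted p = 0.106). The TEAD1 difference did not pass without Panc10.05 NC replicate 2 (0.24, adjusted p = 0.07) and the AJUBA difference without BxPC3 P2-a8 replicate 1 (0.27, adjusted p = 0.0627).

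In AsPC-1, where HNF4A was lowered rather than raised, CCN1 and CCN2 rose with the dual guides and CCN2 and AMOTL2 with the P2 guides, by 1.41- to 1.58-fold. HNF4A itself passed against sgNC with sgDual (log2 -4.73 ± 0.39, adjusted p = 6.25e-06, edgeR). Its lower values with sgP1 (-0.72 ± 0.36, adjusted p = 0.615, edgeR) and sgP2 (-1.30 ± 0.36, adjusted p = 0.0751, edgeR) did not pass. With sgP1, 0 of the 10 genes passed against sgNC in edgeR and 0 in DESeq2, with 1 at an unadjusted p under 0.05 in edgeR, where 0.265% of all genes passed, 0.1% higher and 0.165% lower. With sgP2, 2 of the 10 passed, both higher, where 3.42% of all genes passed, 1.66% higher and 1.76% lower. With sgDual, 2 of the 10 passed, both higher, where 35.6% of all genes passed, 17.8% higher and 17.8% lower. The median log2 fold changes of the 10 genes were 0.07, 0.34 and 0.20, against 0.007, 0.001 and 0.001 over all genes. The 3 comparisons share the 2 sgNC libraries. Each targeted group pools 4 libraries of 2 guides, and the test takes them as 4 replicates. The control is 1 guide with 2 libraries, so these p-values do not treat guides as the units of replication.

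CCN1 was at 68.6 and 65.5 CPM with sgNC, 57.8 to 62.5 with sgP1, 63.3 to 74.2 with sgP2 and 83.8 to 105 with sgDual. All 4 sgDual libraries lay above all others, and the rise over sgNC was 0.50 ± 0.095 on the log2 scale (1.41-fold; adjusted p = 0.00101, edgeR). CCN2 was at 9.57 and 8.32 CPM with sgNC, 8.01 to 10.9 with sgP1, 13.1 to 15.8 with sgP2 and 11.997 to 15.9 with sgDual. Its rise was 0.66 ± 0.15 with sgDual (1.58-fold; adjusted p = 0.00325, edgeR) and 0.65 ± 0.15 with sgP2 (1.57-fold; adjusted p = 0.0273, edgeR). The sgP2 call was lost without either sgNC library (0.55, adjusted p = 0.277 without replicate 2, and 0.75, adjusted p = 0.145 without replicate 1), without either guide (adjusted p = 0.099 and 0.0805) and without sgP2D replicate 1 (adjusted p = 0.0668) or sgP2G replicate 1 or 2 (adjusted p = 0.0536 and 0.0503). Beside the sgDual result, the sum of 6 fibroblast markers was 279.5 to 301.2 CPM with sgDual and 165.2 to 179.4 with sgNC. LUM made up nearly all of it, at 285 ± 9.80 CPM (SD, n = 4) against 171 ± 9.49 (n = 2), and the other 5 markers were under 1 CPM in both groups. The part of this difference in the result was not tested.

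AMOTL2 was at 81.2 and 77.1 CPM with sgNC, 81.9 to 101 with sgP1, 110 to 140 with sgP2 and 73.4 to 92.8 with sgDual. It rose with sgP2 by 0.66 ± 0.11 (1.58-fold; adjusted p = 0.00539, edgeR), with no overlap with the other groups. Without sgNC replicate 1 or 2 the rise did not pass (0.69 and 0.62, adjusted p = 0.0719 and 0.101). With sgDual, which lowered HNF4A further, AMOTL2 overlapped sgNC (0.06 ± 0.11). WWTR1 was at 39.5 and 40.2 CPM with sgNC, 37.4 to 56.7 with sgP1, 44.8 to 65.1 with sgP2 and 47.4 to 54.8 with sgDual. All sgP2 and sgDual libraries lay above sgNC, but neither difference passed in edgeR (0.48 ± 0.15, adjusted p = 0.0897, and 0.36 ± 0.15, adjusted p = 0.0671). With groups by guide both did (adjusted p = 0.0174 and 0.0204, edgeR). That fit leaves differences between guides out of the spread. Its p-values measure only the spread between libraries of the same guide.

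LATS2 showed a similar picture, with 22.7 and 27.4 CPM in sgNC, 21.0 to 29.02 in sgP1, 30.1 to 35.2 in sgP2 and 29.5 to 34.3 in sgDual. Its differences against sgNC were 0.36 ± 0.13 with sgP2 and 0.32 ± 0.13 with sgDual and did not pass in edgeR (adjusted p = 0.146 and 0.0643). With groups by guide they did (adjusted p = 0.0224 and 0.0122). YAP1 ranged from 175 to 211 CPM and TEAD1 from 125 to 164 over the 14 libraries, with fold changes against sgNC between -0.09 and 0.06 on the log2 scale that did not pass. AJUBA ran from 47.0 to 75.6 CPM and was highest with sgP2, at 59.2 to 75.6, where the difference from sgNC did not pass (0.32 ± 0.12, adjusted p = 0.178, edgeR) but did with groups by guide (adjusted p = 0.048).

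**Figure D4:**
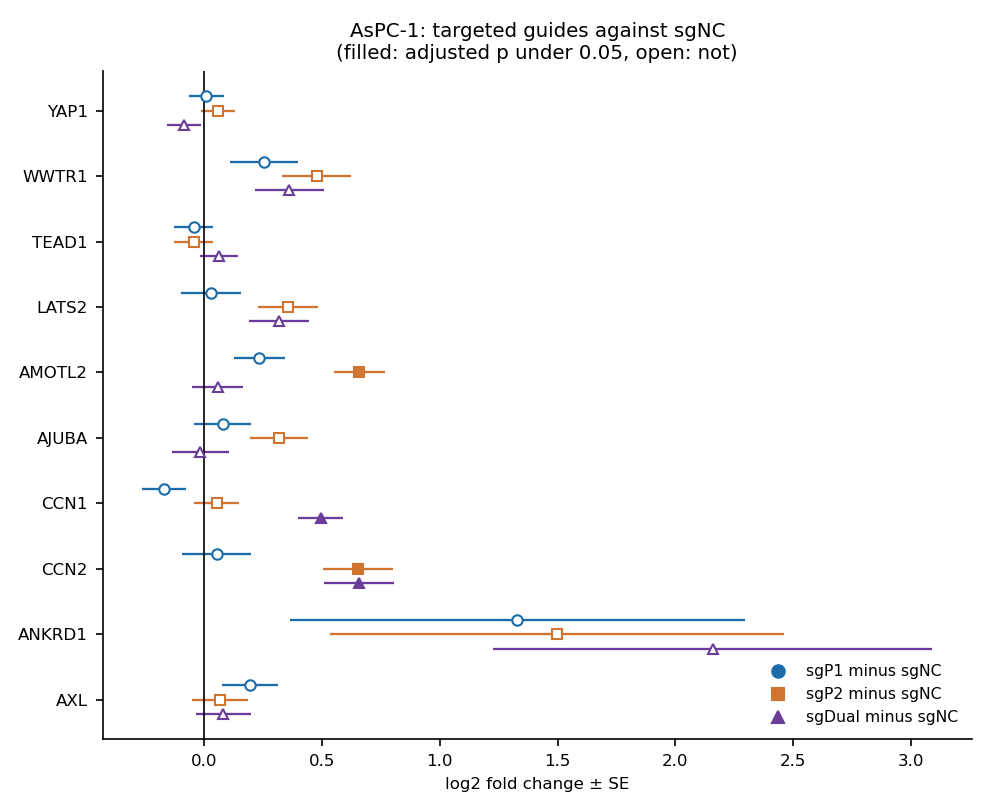
Log2 fold change against sgNC with its standard error for the 10 genes in AsPC-1, for sgP1 (circles), sgP2 (squares) and sgDual (triangles), where filled symbols passed an adjusted p of 0.05. CCN2 and AMOTL2 are filled for sgP2 and CCN1 and CCN2 for sgDual, and the error bars of ANKRD1 are the widest.

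The targeted groups of AsPC-1 were also compared with each other. For sgP2 against sgP1, 2 of the 10 genes passed, CCN2 (0.60 ± 0.12) and AMOTL2 (0.42 ± 0.087), both higher with sgP2, where 4.3% of all genes passed, 2.17% higher and 2.13% lower. Without guide sgP2D the CCN2 call was lost (0.57, adjusted p = 0.0742, edgeR), and without sgP1J or sgP2G that of AMOTL2 (adjusted p = 0.0594 and 0.142). For sgDual against sgP1, 3 of the 10 passed, all higher, where 38.3% of all genes passed, 18.6% higher and 19.7% lower. They were CCN1 (0.67 ± 0.076, adjusted p = 1.39e-05, edgeR), CCN2 (0.60 ± 0.12, adjusted p = 0.001) and LATS2 (0.29 ± 0.10, adjusted p = 0.0369). The LATS2 call was lost in DESeq2 (adjusted p = 0.0543), without guide sgP1J (0.11, adjusted p = 0.365), sgDual2 (adjusted p = 0.234) or sgDual3 (adjusted p = 0.0564), and without sgP1J replicate 1 or 2 (adjusted p = 0.0966 and 0.101), sgDual2 replicate 1 or 2 (adjusted p = 0.0629 and 0.11) or sgDual3 replicate 2 (adjusted p = 0.0504). For sgDual against sgP2, 3 of the 10 passed, 1 higher and 2 lower, where 46.4% of all genes passed, 22.8% higher and 23.5% lower. CCN1 was higher with sgDual (0.44 ± 0.076, adjusted p = 2.51e-04, edgeR), and AMOTL2 (-0.60 ± 0.087, adjusted p = 5.64e-05) and AJUBA (-0.33 ± 0.099, adjusted p = 0.0116) were lower. The AJUBA call was lost without guide sgDual2 (-0.16, adjusted p = 0.224), sgP2G (adjusted p = 0.0806) or sgP2G replicate 1 (adjusted p = 0.0516).

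Some of the genes differed between 2 guides of a target, a difference tested with each of the 7 guides as its own group. ANKRD1 was the clearest case. It had 14 and 13 counts (0.27 and 0.39 CPM) with sgP1E but 37 and 55 (1.08 and 1.78 CPM) with sgP1J, a log2 difference of -2.13 ± 0.37 (adjusted p = 0.00173, edgeR). It had 10 and 10 counts (0.39 and 0.31 CPM) with sgP2D and 54 and 45 (1.62 and 1.43 CPM) with sgP2G, a difference of -2.14 ± 0.39 (adjusted p = 0.0103, edgeR) that did not pass without sgP2D replicate 2 (adjusted p = 0.13), sgP2D replicate 1 (adjusted p = 0.0686) or sgP2G replicate 1 (adjusted p = 0.0723). With sgDual2 it had 29 and 32 counts and with sgDual3 54 and 97 (-1.28 ± 0.30, adjusted p = 0.0806, edgeR), beside 13 and 8 with sgNC. In each target both libraries of 1 guide lay below both of the other, although the sgDual difference did not pass, and no comparison of the pooled groups with sgNC passed in edgeR. The pooled sgDual libraries differed most from sgNC (log2 2.16 ± 0.93, adjusted p = 0.0912, edgeR), a difference that passed in DESeq2 (adjusted p = 0.0328) and with groups by guide (adjusted p = 0.00048, edgeR). The fit by guide leaves out the spread between guides, whose means were 0.88 CPM with sgDual2 and 2.13 with sgDual3. The level of ANKRD1 was under 3 CPM throughout.

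AXL was at 143 and 145 CPM with sgDual2 and 197 and 195 with sgDual3, on both sides of sgNC (154 and 167), a difference of -0.45 ± 0.068 (adjusted p = 0.00422, edgeR). It was the only one of the 10 genes to pass between the dual guides, where 0.883% of all genes did. The call was lost without sgDual2 replicate 1 (adjusted p = 0.0983), sgDual2 replicate 2 (adjusted p = 0.0612) or sgDual3 replicate 1 (adjusted p = 0.0659). Between sgP1E and sgP1J, 3 of the 10 genes passed, where 14.5% of all genes did. Beside ANKRD1 these were LATS2, at 28.8 and 29.02 CPM with sgP1E against 23.3 and 21.0 with sgP1J (0.38 ± 0.10, adjusted p = 0.0245, edgeR), and CCN2, at 8.15 and 8.01 against 10.9 and 10.07 (-0.38 ± 0.12, adjusted p = 0.0434, edgeR). The CCN2 difference did not pass in DESeq2 (adjusted p = 0.123) or without any of the 4 libraries (adjusted p up to 0.169), and the LATS2 difference not without sgP1E replicate 1 (adjusted p = 0.0741), sgP1E replicate 2 (adjusted p = 0.101) or sgP1J replicate 2 (adjusted p = 0.135). Between sgP2D and sgP2G, 1 of the 10 passed (ANKRD1), where 1.69% of all genes did. HNF4A did not pass between the guides of any target (log2 differences of 0.35 ± 0.41, 0.20 ± 0.41 and -0.46 ± 0.50).

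**Figure D5:**
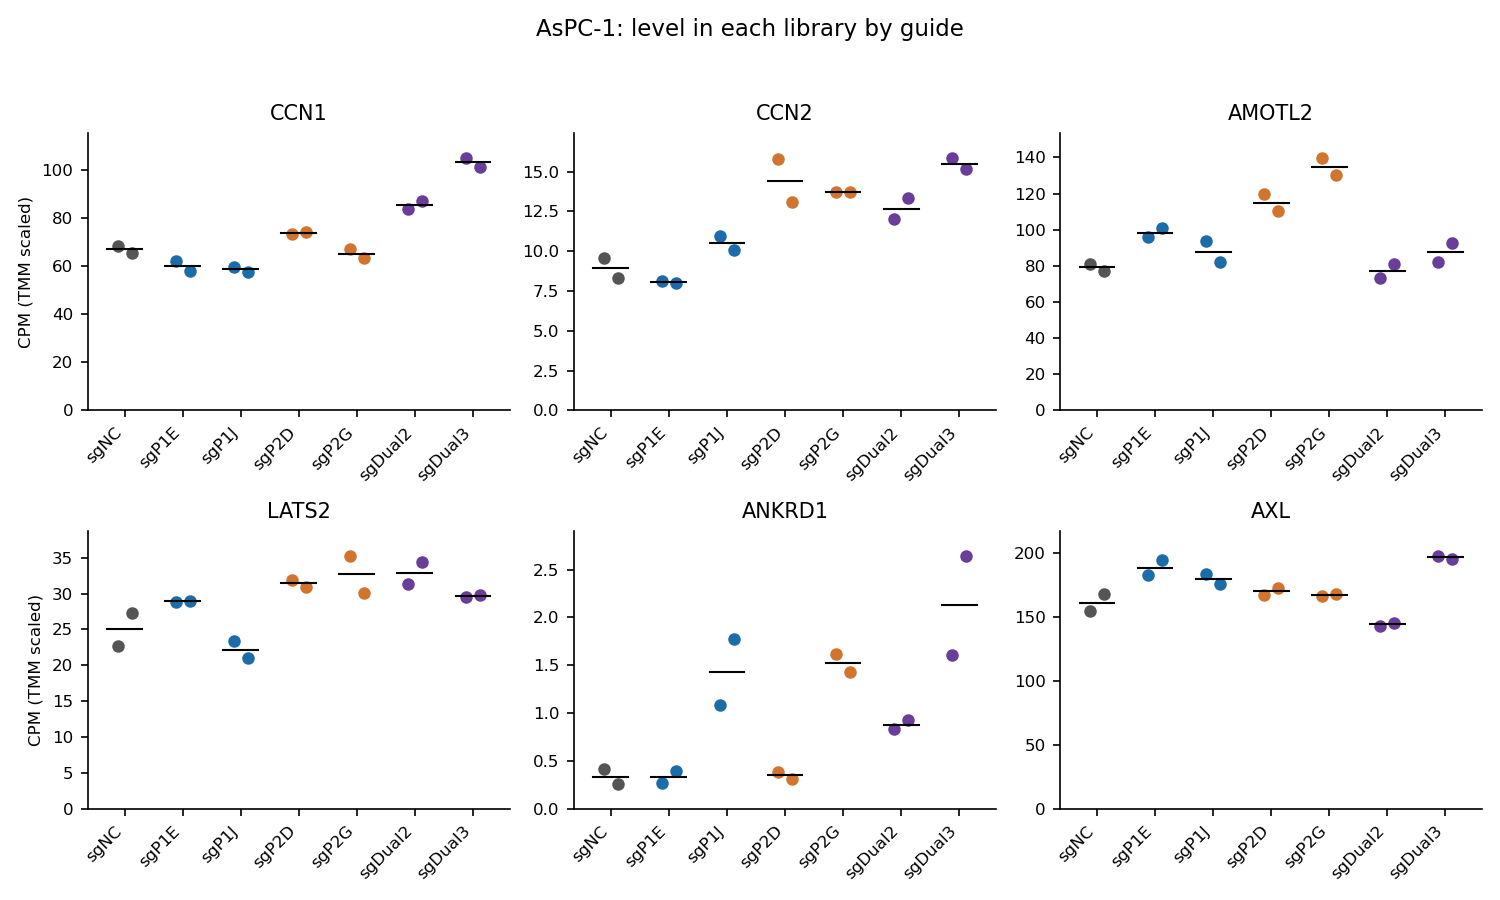
Level of 6 of the genes in each AsPC-1 library by guide, in CPM on linear axes from 0, where a point is 1 library and a bar the mean of 2. CCN1 is highest with both dual guides, ANKRD1 is higher with sgP1J, sgP2G and sgDual3 than with the other guide of each target, and AXL is lower with sgDual2 than with sgDual3.

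Among 31 other Hippo pathway regulators, changes went both ways. In Panc10.05, of 30 tested, 11 were higher and 8 lower with P1-a2 and 14 were higher and 6 lower with P2-a8, with medians of 0.06 and 0.13 on the log2 scale. Over all genes 31.5% were higher and 30.5% lower with P1-a2, and 23.7% and 22.5% with P2-a8. AMOTL1, an angiomotin like AMOTL2, rose from 36.0 ± 1.19 CPM (SD, n = 2) in NC to 81.6 ± 3.62 with P2-a8 and 62.6 ± 2.57 with P1-a2, opposite in direction to AMOTL2 with P1-a2. LIMD1, a LIM protein of the AJUBA family, fell with P1-a2 from 53.1 ± 4.13 to 31.1 ± 1.56 CPM. RASSF1, a scaffold of the MST kinases, rose with P1-a2 in both lines, from 22.6 ± 0.54 to 38.7 ± 0.28 CPM in Panc10.05 and from 11.7 ± 1.31 to 18.5 ± 0.013 CPM in BxPC3. In BxPC3, 7 were higher and 5 lower of 31 with P1-a2 (17.1% and 14.9% of all genes), led by WWC1 (KIBRA, an upstream activator of LATS kinases; 58.9 ± 1.78 to 107 ± 12.3 CPM) among genes above 10 CPM. With sgDual in AsPC-1, 7 were higher and 5 lower of 29, beside 17.8% of all genes in each direction. TEAD4 fell from 33.3 ± 3.90 to 18.6 ± 1.06 CPM (-0.84 ± 0.10, adjusted p = 2.96e-05, edgeR) and TEAD2 rose from 6.91 ± 0.36 to 12.96 ± 1.51 (0.91 ± 0.23, adjusted p = 0.00632, edgeR), while TEAD1 did not pass.

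Other published YAP and TAZ targets went both ways. Of 15 tested in Panc10.05, 5 were higher and 9 lower with P1-a2 (median -0.27), beside 31.5% and 30.5% of all genes, and 6 were higher and 6 lower with P2-a8 (median -0.05), beside 23.7% and 22.5%. F3, the tissue factor gene, fell with P1-a2 from 2002 ± 9.34 to 928 ± 15.0 CPM (SD, n = 2), and CCDC80, a secreted matrix protein, rose from 5.65 ± 0.58 to 33.1 ± 2.89. With sgDual, 7 were higher and 3 lower of 17 (median 0.64) and 7 did not pass, beside 17.8% of all genes in each direction. IGFBP3, which binds insulin-like growth factors, rose from 827 ± 210 to 4537 ± 638 CPM (2.46 ± 0.39, adjusted p = 5.08e-04, edgeR) and THBS1, thrombospondin, from 32.0 ± 7.61 to 100 ± 31.1. NT5E, the ectonucleotidase CD73, fell with sgDual from 322 ± 5.02 to 130 ± 14.2 CPM. THBS1 also rose in Panc10.05 with P2-a8 (136 ± 6.27 to 264 ± 24.5), the same direction as with sgDual in AsPC-1. Its values with P1-a2 and in BxPC3 are not given here.

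Of 4 other members of the CCN family, 2 were tested in Panc10.05, and both were lower. CCN3 fell from 74.7 ± 1.86 CPM in NC to 45.7 ± 0.62 with P2-a8 and 18.0 ± 3.38 with P1-a2, and 2 of 2 tested members were lower with each isoform. Over all genes 22.5% were lower with P2-a8 and 30.5% with P1-a2. In BxPC3, where CCN1 did not fall, CCN3 fell from 17.7 ± 2.14 to 11.7 ± 0.56 with P2-a8 and 9.97 ± 1.21 with P1-a2 (-0.83 ± 0.12, adjusted p = 4.22e-04, edgeR). With sgDual, 2 of 3 tested were higher (CCN3 and CCN5), at levels under 1 CPM in sgNC, where 17.8% of all genes were higher.

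The partners of AXL changed more than AXL in places, and not in 1 direction. Of 4 tested in Panc10.05, 2 were higher and 1 lower with P1-a2, beside 31.5% and 30.5% of all genes. With P2-a8, 1 was higher and 1 lower, beside 23.7% and 22.5%. In BxPC3, 2 were higher and 1 lower with P1-a2 (17.1% and 14.9% of all genes), and 1 was higher with P2-a8 (4.3%). With sgDual, 0 of 4 passed in edgeR, beside 17.8% of all genes in each direction. GAS6, the main ligand of AXL, fell in Panc10.05 from 122 ± 3.43 CPM in NC to 92.7 ± 1.23 with P2-a8 and 33.8 ± 0.47 with P1-a2 (-1.85 ± 0.066, adjusted p = 4.49e-26, edgeR), in the same order as AXL. In BxPC3, where AXL did not pass, GAS6 fell with P1-a2 from 38.8 ± 0.35 to 21.8 ± 1.08 CPM. PROS1, protein S, a ligand of the related receptors TYRO3 and MERTK, rose in BxPC3 from 1.02 ± 0.087 to 6.06 ± 0.13 CPM with P2-a8 and 11.5 ± 0.37 with P1-a2 (3.50 ± 0.17, adjusted p = 9.77e-08, edgeR).

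Genes that share inputs with YAP targets were counted as well, since CCN1 and CCN2 also respond to serum, stress and actin signals. Of 10 immediate-early genes, 8 were higher and 1 lower in Panc10.05 with P1-a2 (median 0.57), in which CCN1 and CCN2 fell, and 8 were higher and 1 lower with sgDual in AsPC-1 (median 0.78), in which CCN1 and CCN2 rose. Over all genes 31.5% were higher in the first comparison and 17.8% in the second. With P2-a8 in Panc10.05, in which CCN1 and CCN2 also fell, 6 were higher and 2 lower (median 0.57). There 23.7% of all genes were higher and 22.5% lower. In BxPC3, 1 was higher and 1 lower with P1-a2 (median -0.60) and 0 passed with P2-a8 in edgeR. The BxPC3 shares of all genes higher and lower were 17.1% and 14.9% with P1-a2 and 4.3% and 2.69% with P2-a8. ATF3, a stress-induced factor, rose from 17.5 ± 0.43 to 57.1 ± 2.25 CPM with P1-a2 and from 2.38 ± 0.27 to 6.65 ± 0.85 with sgDual. Of 7 AP-1 subunits, which bind beside TEAD at many enhancers, 4 were higher and 2 lower in Panc10.05 with P1-a2, where 31.5% of all genes were higher and 30.5% lower. JUN rose from 74.5 ± 3.10 to 186 ± 13.5 CPM and FOSL1 fell from 448 ± 34.6 to 244 ± 6.25. Of 9 tested actin genes of the SRF and MRTF factors, 5 were higher and 2 lower with P1-a2 in Panc10.05 and 7 higher in BxPC3, and 1 higher and 2 lower with sgDual, where TPM2, a tropomyosin, fell from 633 ± 1.99 to 176 ± 52.6 CPM. The shares of all genes higher and lower were 31.5% and 30.5%, 17.1% and 14.9%, and 17.8% and 17.8% in these 3 comparisons.

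Over libraries, the genes of the set moved with each other to different degrees. Pearson's r between CCN1 and CCN2, on log2 CPM, was 0.99 over the 6 Panc10.05 libraries, 0.89 over the 6 BxPC3 libraries and 0.69 over the 14 AsPC-1 libraries. Between CCN1 and WWTR1 it was 0.96, -0.75 and 0.18, and between CCN1 and AJUBA -0.99, 0.75 and -0.12. ANKRD1 had an r with CCN2 of -0.51, 0.20 and 0.56. These values are descriptions over libraries that share groups, guides and library depth. The genes most like CCN1 over all 26 libraries, each centred on its line's controls, among 14523 genes, were ATP8B3 (r = 0.952), LIMA1 (0.944) and IL7R (0.938). Those most like CCN2 were SELENOM (0.898), RSPH3 (0.895) and CCN1 itself (0.894), and those most like AXL were DNAJB5 (0.921), SEMA3F (0.921) and CNTROB (0.920).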

How the data were processed

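The authors deposited whole-number read counts per Ensembl gene, 1 table per line. Per the submitters' processing notes, cutadapt 1.16, STAR 2.7.9a, featureCounts 1.6.3, DESeq2 1.36.0 and GRCh38 were used. The annotation release and strand setting are not given in the sources used here. Per the labels' protocols, poly(A) RNA was prepared with a directional kit. Genes were named from a reference table that matched 99.88% of identifiers in Panc10.05 and BxPC3 and 99.91% in AsPC-1, and placed with GENCODE v29.

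The 10 genes, the 7 comparison lists and the marker lists were chosen with earlier results of these data known. Genes with low counts were removed with filterByExpr, libraries were scaled by TMM, and groups were compared with edgeR's quasi-likelihood test (glmQLFit, robust; edgeR 4.0.16, limma 3.58.1, R 4.3.3), all groups of a table sharing 1 estimate of spread. Benjamini-Hochberg adjustment covered all genes tested (17247 in Panc10.05, 17635 in BxPC3, 16992 in AsPC-1, 19372 in the joint fit), and 0.05 was the threshold. SE is the absolute log2 fold change divided by the square root of F. Guides were compared with 7 groups by guide. The script was tested on simulated data. From each list up to 4 genes per comparison, past the threshold, with the largest change and a mean of at least 1 CPM, could be named. CCN3 and CCN5 with sgDual and the marker LUM were named outside that rule, after their values were seen. Replicate counts differed by more than sampling noise (chi-square per degree of freedom 5.35 to 24.8). Alternatives were DESeq2 1.42.0, total-count scaling, no filter, fitting only 2 groups, groups by guide, a limit on fold change, a replicate block and leaving out each library or guide. The block for guide comparisons was added after seeing the data. Tables and plots used matplotlib 3.10.9, pandas 2.3.3 and numpy 2.4.6 under Python 3.11.15.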

Additional observations from a re-analysis of the deposited data

Results flagged for a closer look

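Responses that differed between the 2 induced lines, by the interaction test, are given as the log2 change in Panc10.05 minus that in BxPC3. For P1-a2 against NC these were CCN1 (-1.92), WWTR1 (-1.49), AXL (-0.81), AJUBA (0.89) and TEAD1 (0.45). For P2-a8 against NC they were CCN1 (-1.62), AXL (-0.70), WWTR1 (-0.58), AJUBA (0.36), LATS2 (0.33), TEAD1 (0.32) and YAP1 (0.26). For P1-a2 against P2-a8 they were WWTR1 (-0.90) and AJUBA (0.53). Differences between the 2 guides of a target were ANKRD1 (-2.13), CCN2 (-0.38) and LATS2 (0.38) for sgP1E minus sgP1J, ANKRD1 (-2.14) for sgP2D minus sgP2G and AXL (-0.45) for sgDual2 minus sgDual3. No library lay far outside its group in any of the 33 groups of 4 libraries examined, which are the 10 genes and HNF4A at each AsPC-1 target.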

How the results depend on the processing

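Over all alternatives, 1907 values of single genes stayed on their side of the threshold, 83 came to pass it, 79 no longer passed and 1 turned: AXL in sgDual minus sgP2 was 0.23 (adjusted p = 0.0177) without guide sgDual2 and -0.23 (adjusted p = 0.0198) without guide sgDual3, edgeR. In 95 of the 1907, the sign changed while neither value passed. The numbers below count the 10 genes that passed, with the unchanged setting in the report. Where a change of at least 1 on the log2 scale was also required, in Panc10.05 3 passed for P1-a2 and 1 for P2-a8 against NC, 0 passed between the isoforms, and in BxPC3 0 for P1-a2 and 0 for P2-a8 against NC. Under that limit 0 passed for sgP2 and for sgDual against sgNC, 0 for sgP2 and for sgDual against sgP1 and 0 for sgDual against sgP2. In BxPC3, with no filter on low counts 4 passed for P2-a8 against NC and 3 between the isoforms. With total-count scaling 1 passed between the isoforms, where 3947 of all 17635 genes did. With 7 groups by guide, the spread between guides is left out of the test. There 5 passed for sgP2 against sgNC, 5 for sgDual against sgNC, 4 for sgP2 against sgP1 and 6 for sgDual against sgP1. With only 2 groups fitted, 5 passed for sgDual against sgNC, 1 for sgP2 against sgP1 and 5 for sgDual against sgP2. For sgP2 against sgNC, 1 passed without guide sgP2D and 1 without sgP2G. For sgP2 against sgP1, 4 passed without guide sgP1E, 1 without sgP1J, 1 without sgP2D and 1 without sgP2G. Apart from total-count scaling, no share of all genes is given for these settings, so the counts cannot be set against it.

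Leaving out 1 library at a time, the count ran from 1 to 2 for P1-a2 against NC in BxPC3, from 0 to 3 for P2-a8 against NC, from 0 to 2 between the isoforms, from 0 to 3 for sgP2 against sgNC, from 1 to 4 for sgP1E against sgP1J, from 0 to 1 for sgP2D against sgP2G, from 0 to 1 for sgDual2 against sgDual3 and from 3 to 6 for the line difference in P2-a8, the 3 without Panc10.05 NC replicate 2. The cause was not tested, and no share of all genes is given beside these counts.

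Replicate numbers were not taken to pair libraries, since each group has only 2 numbers and no label ties them. Deviations of same-numbered libraries correlated at -0.019 to 0.019 in Panc10.05, 0.13 to 0.24 in BxPC3 and 0.15 to 0.50 in AsPC-1, over genes. With a replicate block, against NC in BxPC3 4 genes passed with P1-a2 and 6 with P2-a8, and 4 passed between the isoforms, 4 for the line difference in P1-a2 against P2-a8 and 4 for sgDual2 against sgDual3. Over all genes, 7333, 2886 and 5992 of 17635 passed with the block in these BxPC3 comparisons. For that line difference 5322 of 19372 passed, and between the dual guides 558 of 16992. With the block CCN1 in BxPC3 was higher than NC with P1-a2 (0.32, adjusted p = 5.67e-06, edgeR) and with P2-a8 (0.39, adjusted p = 2.01e-06).

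Depth was not limiting except for ANKRD1 in AsPC-1, at 8 to 97 counts per library, and groups of 2 libraries limit precision.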

Other observations

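TAZ RNA (WWTR1) was lower in all 8 induced libraries than in the NC libraries of the same line, and higher in all 8 sgP2 and sgDual libraries than in both sgNC libraries. The sgP1 libraries, at 37.4 to 56.7 CPM, did not separate from sgNC, since sgP1J replicate 2 lay below both sgNC libraries. In AsPC-1 the differences from sgNC did not pass the threshold (adjusted p = 0.0897 with sgP2 and 0.0671 with sgDual, edgeR). Both passed with groups by guide (adjusted p = 0.0174 and 0.0204, edgeR), a fit that leaves out the spread between guides. That of sgP2 also passed without sgP2D replicate 2 (0.56, adjusted p = 0.039, edgeR). That of sgDual also passed with only 2 groups fitted (0.36, adjusted p = 0.00234, edgeR). This pattern was picked out after its values were seen, and the share of all genes that show it is not given here. In Panc10.05 most of the 10 genes had no overlap between induced and NC libraries, some lying above and some below.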
